A study of Mus musculus with 25 samples.

Results

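The mouse mitochondrial genome carries 37 genes, 13 that encode proteins of the respiratory chain, 2 that encode the ribosomal RNAs of the mitochondrial ribosome and 22 that encode transfer RNAs. They were taken here as the genes that the deposited count table places on the mitochondrial chromosome, which makes 37 of 55375 genes. Which genes belong to the set rests on position alone. The set itself was chosen with earlier results of these libraries known, which the adjusted p values below do not take into account. The share of reads that these genes take and the balance among them were selected on earlier results of the same libraries, so both are described below without a test.

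Both strands of mitochondrial DNA are transcribed as long precursors by POLRMT with TFAM and TFB2M. The precursors are cut mostly where a tRNA lies, which frees the rRNAs and mRNAs between them, and MTPAP adds short poly(A) tails. In an early embryo almost all mitochondria come from the oocyte, and in somatic cell nuclear transfer (SCNT) they come from the enucleated recipient oocyte together with those that travel with the donor nucleus.

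RNA was sequenced from pools of 5 to 10 two-cell embryos taken 28 to 29 h after insemination or activation, in 25 libraries of 11 groups. IVF embryos (4 libraries) came from C57BL/6N oocytes and DBA2 sperm. Every SCNT embryo came from a BDF1 (C57BL/6N × DBA2) oocyte and a BDF1 cumulus cell nucleus, so the strain of the oocyte cannot be told apart from the way the embryo was made. SCNT embryos made in cytochalasin B had no further treatment (called SCNT), or received 10 pL of mRNA (1500 ng/µL in the labels, in another unit in the study's methods) of the H3K9 demethylases Kdm3a (SCNT-Kdm3a) or Kdm4d (SCNT-Kdm4d), with 2 libraries each. SCNT embryos made in latrunculin A, which like cytochalasin B blocks actin polymerization, had no further treatment (LatA, 2 libraries), the histone deacetylase inhibitor trichostatin A at 25 nM for 8 h (LatA-TSA, 2), or a G9a inhibitor at 1 µM for 24 h, A366 (LatA-A366, 2) or R701, which the study calls RK-701 (LatA-R701, 3). A further 2 libraries each had TSA with A366, R701 or UNC0638. The wild-type genotype was common to all groups, and the labels give no batch or date.

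Reads on genes ranged from 6662727 to 21188688 per library, and those on mitochondrial genes from 309714 to 1557174. All 10 markers of oocytes and two-cell embryos had reads in every library, and their summed level moved with the groups, from 3436 to 5421 CPM (counts scaled to library size) in LatA, 4109 to 5502 in LatA-TSA, 5033 to 5097 in LatA-A366 and 4988 to 5197 in LatA-R701 to 5835 to 7141 in SCNT, 7515 to 8784 in IVF, 7151 to 8736 in the co-treated groups, 9179 to 9283 in SCNT-Kdm4d and 10479 to 11098 in SCNT-Kdm3a libraries. Dppa3 weighed most in this sum, with a median of 5909 CPM over the libraries, against 3.08 to 482 for each other marker. The 12 markers of cumulus cells, the donor cells, summed to between 21.5 and 74.3 CPM. Of these, Lum was at 0 in 24 libraries and Ptx3 at 0 in 22. Serpine2 and Kitl had the highest medians of that list, at 25.8 and 13.5 CPM. The summed cumulus level was 47.5 to 71.0 in IVF, 60.6 to 63.0 in SCNT, 65.1 to 74.3 in LatA, 46.2 to 57.5 in LatA-TSA, 60.1 to 63.5 in LatA-A366, 30.3 to 57.1 in LatA-R701, 21.5 to 33.9 in SCNT-Kdm3a, 35.0 to 40.6 in SCNT-Kdm4d and 29.1 to 46.0 in the libraries with TSA and a G9a inhibitor, and the part of both lists in the mitochondrial values was not tested.

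Part of the mitochondrial sequence recurs in the nuclear genome. A stretch of 4662 bases of the mitochondrial genome (chrM:6381-11042, GRCm38, the assembly also called mm10) has annotated copies in 7 pseudogenes on the minus strand of chromosome 1 (chr1:24611535-24616197). The stretch holds 13 of the 37 genes wholly or in part. The first 45 bases of 3 of the copies are shown beside the mitochondrial gene they match, because they show how closely a read from this stretch matches a second position. Capitals mark bases that differ within a pair, and all are written in the direction of transcription.
mt-Co3 (chrM:8607-8651, plus strand): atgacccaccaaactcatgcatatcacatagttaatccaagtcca
Gm28437 (chr1:24613927-24613971, minus strand): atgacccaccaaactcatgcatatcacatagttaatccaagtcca
mt-Nd3 (chrM:9459-9503, plus strand): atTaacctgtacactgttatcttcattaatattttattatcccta
Gm28438 (chr1:24613075-24613119, minus strand): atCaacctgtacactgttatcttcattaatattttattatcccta
mt-Co1 (chrM:6381-6425, plus strand): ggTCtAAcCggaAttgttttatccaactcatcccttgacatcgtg
Gm29216 (chr1:24616153-24616197, minus strand): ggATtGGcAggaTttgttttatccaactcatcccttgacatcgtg

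Over its whole length Gm28437 matched mt-Co3 at 783 bases with 0 differences, and Gm28438 matched mt-Nd3 at 344 bases with 1 difference. The 6 differences between Gm29216 and mt-Co1 all lie in the bases shown, at the edge of the stretch, and the other 486 aligned bases were identical. Of all windows of 150 bases, the length of a read, the share found unchanged in a nuclear transcript was 99.8% for mt-Co3, 99.4% for mt-Co2 and mt-Atp6, 98.0% for mt-Nd4l and 97.0% for mt-Nd3. It was 59.2% for mt-Nd4 and 23.6% for mt-Co1, and 0% for mt-Nd1, mt-Nd2, mt-Nd5, mt-Nd6, mt-Cytb and both rRNA genes. mt-Atp8 lies between the copies of mt-Co2 and mt-Atp6 and had no annotated copy of its own. The gap between those copies was 233 bases on the mitochondrial genome and 233 on chromosome 1. Unannotated copies were not searched. The authors retained only reads with a single position.

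Most coding genes in the stretch had few reads. On the TPM scale, which divides reads by gene length, the median level over the 25 libraries was 31.5 for mt-Co2, 30.1 for mt-Co3 (both subunits of cytochrome c oxidase), 65.3 for mt-Atp6, 9.24 for mt-Atp8 (both subunits of ATP synthase), 15.3 for mt-Nd3 and 6.13 for mt-Nd4l (both subunits of complex I). The coding genes outside the stretch had median levels between 2782 TPM for mt-Nd6, the only coding gene on the light strand, and 35359 TPM for mt-Cytb, the mitochondrial subunit of complex III. Between those stood mt-Nd1 at 17319.6, mt-Nd2 at 8708 and mt-Nd5 at 3403 TPM. mt-Co1, at 9668, and mt-Nd4, at 8115 TPM, lie partly in the stretch. The counts hold only reads with a single position, so the levels of all genes with copied windows, mt-Co1 and mt-Nd4 included, are not set against those of the other genes. The part of the copies in the low counts was not tested. No annotated copy held a window of mt-Atp8, and an unannotated copy would not have been found.

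**Figure D1:**
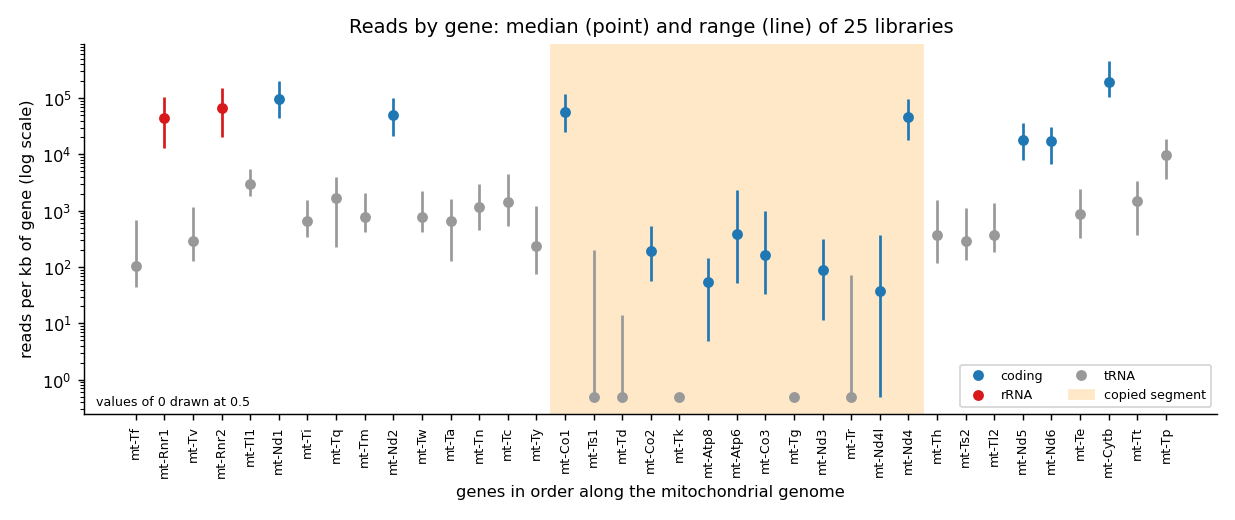
Reads per kb of gene (log axis) for the 37 genes in their order along the mitochondrial genome, with the median of the 25 libraries as a point and their range as a line, coloured by class. The shaded stretch has annotated copies on chromosome 1, and 6 coding genes within it lie far below mt-Co1 and mt-Nd4 at its edges.

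Levels of the rRNAs were within the range of the coding genes outside the stretch. Their medians were 7265 TPM for mt-Rnr1 (12S) and 10537 TPM for mt-Rnr2 (16S). Since the library kit primes on poly(A), these are levels of primed RNA, and the tails were not measured. The tRNA genes, 59 to 75 bases long and so shorter than a read, took 0.178% to 0.447% of mitochondrial reads. A read pair over more than 1 gene was not counted and strand was not used. A count on a tRNA gene therefore cannot be assigned to the tRNA itself, to a precursor or to the opposite strand. For mt-Nd6 as well, a count cannot be assigned to the strand of the gene or to the opposite one. The most counted were mt-Tp with a median of 657 reads per library, mt-Tl1 with 226 and mt-Tq with 122. No read was counted on mt-Tk or mt-Tg in any library, at most 1 on mt-Td and 5 on mt-Tr, and all 4 lie in the copied stretch. These 4 did not reach a mean of 1 read per library, which left 33 of the 37 genes for the tests.

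The tRNA genes mt-Tt (tRNA-Thr) and mt-Tp (tRNA-Pro) are shown because both were called in SCNT and in LatA against IVF embryos. They stand side by side behind mt-Cytb on opposite strands, and the anticodon of each is in capitals.
mt-Tt (chrM:15289-15355, plus strand): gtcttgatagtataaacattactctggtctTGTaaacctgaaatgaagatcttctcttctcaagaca
mt-Tp (chrM:15356-15422, minus strand): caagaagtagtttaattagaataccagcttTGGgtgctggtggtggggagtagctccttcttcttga

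The library kit primes on poly(A), and in mitochondria the tail is also part of the message, since it completes stop codons that the genome leaves unfinished. The ends of 3 coding genes show this beside mt-Nd5, whose stop codon is complete. Capitals mark the stop codon or the part of it that the genome encodes.
mt-Cytb (chrM:15267-15288): aaaatactaaaattatatccaT
mt-Nd4 (chrM:11523-11544): ctaattacaggcctgacaataT
mt-Co3 (chrM:9369-9390): tccatttattgatgaggatctT
mt-Nd5 (chrM:13542-13565): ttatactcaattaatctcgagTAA

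The share of gene reads on the mitochondrial genome was highest in untreated SCNT embryos and lowest after TSA with a G9a inhibitor. It was 4.65%, 5.78%, 5.75% and 5.35% in the IVF libraries (5.38% ± 0.526, SD, n = 4). In SCNT libraries it was 10.2% and 8.28%, and in LatA libraries 5.85% and 8.63%. All 4 untreated SCNT libraries lay above all IVF libraries, LatA replicate 1 by only a small margin. This margin depended on the definition of the share. With the 13 coding genes alone LatA replicate 1 had 4.43%, within the IVF range of 3.97% to 5.01%. It was also below the highest IVF library outside the copied stretch (4.65% against 4.72%) and as a share of TPM (12.2% against 12.5%). With only autosomal and mitochondrial genes in the total it stayed above, at 6.04% against 5.96%. The LatA replicates differed from each other more than any IVF libraries did. The mean share was 1.71 times that of IVF in SCNT and 1.34 times in LatA embryos, and the latter was 1.09 without LatA replicate 2 and 1.603 without replicate 1.

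With Kdm4d mRNA the share was 5.09% and 4.41%, below both SCNT libraries, and with Kdm3a mRNA it was 7.35% and 5.78%, also below both. The libraries with TSA alone had 7.12% and 5.29% and those with A366 alone 6.97% and 6.39%, which overlapped the LatA libraries. With R701 alone the share was 5.12%, 5.04% and 4.55%, below both LatA libraries. The 6 libraries that received TSA together with a G9a inhibitor were the lowest of all 25. They had between 3.57% and 4.36%, against 4.41% to 10.2% in the other 19. With the 13 coding genes alone, SCNT-Kdm4d replicate 2 (3.44%) lay below replicate 2 of TSA with UNC0638 (3.57%). Among the 6 co-treated libraries the compounds lay close together. The shares of all mitochondrial genes were 4.08% and 3.57% with A366, 3.85% in both libraries with R701, and 3.87% and 4.36% with UNC0638.

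**Figure D2:**
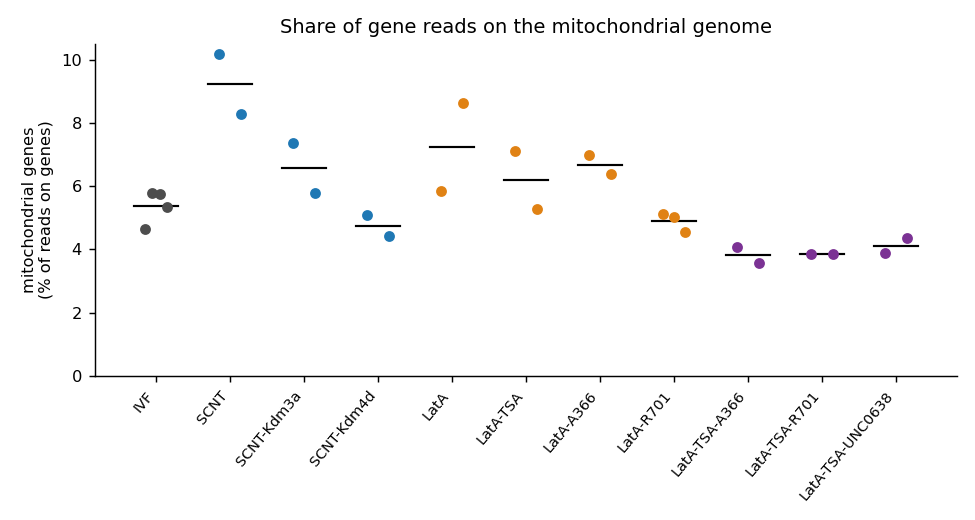
Share of gene reads on the 37 mitochondrial genes (percent, linear axis from 0) by group. Each point is a library and each bar a group mean: IVF libraries sit between 4.65% and 5.78%, SCNT libraries at 8.28% and 10.2%, and the 6 libraries with TSA and a G9a inhibitor between 3.57% and 4.36%.

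A share can rise because mitochondrial RNA is more abundant or because nuclear polyadenylated RNA is less abundant, and in bulk libraries these cannot be told apart. The libraries with the highest shares were not the deepest: SCNT replicates 1 and 2 had 9136103 and 11878059 gene reads and LatA replicate 2 had 9259726, while LatA replicate 1 had 16604899. IVF replicate 1, the shallowest library at 6662727 gene reads, had the lowest share of its group. The part of depth was not tested.

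The balance among the mitochondrial genes moved as well, mainly between the rRNAs and mt-Cytb. In IVF libraries the 2 rRNA genes took 12.7% to 15.4% of mitochondrial reads (14.3% ± 1.15, SD, n = 4). They took 23.9% and 20.6% in SCNT and 24.0% and 29.6% in LatA libraries. mt-Cytb went the other way, with 37.9% to 41.1% in IVF, 30.0% and 31.6% in SCNT and 29.7% and 23.6% in LatA libraries. No IVF library overlapped any of the 21 SCNT libraries in either measure, with or without treatment, since the rRNA share of the SCNT libraries started at 15.5% and their mt-Cytb share ended at 37.2%.

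The ratio of rRNA to mt-Cytb reads sets the groups in order. It was 0.366 ± 0.0413 (SD) in IVF libraries (n = 4), and group means were 0.482 with TSA and R701, 0.544 with TSA and A366, 0.554 with TSA and UNC0638, 0.631 in SCNT-Kdm4d, 0.639 in SCNT-Kdm3a, 0.641 with R701 alone and 0.724 in SCNT embryos. Above these stood A366 alone at 0.861, LatA at 1.03 and TSA alone at 1.04. Neighbours in this order overlapped among the co-treated groups, among the 4 groups from 0.631 to 0.724, and among A366, LatA and TSA alone. Both rRNAs shifted together, with 2.14 to 2.85 reads on mt-Rnr2 for each read on mt-Rnr1 in the 25 libraries.

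**Figure D3:**
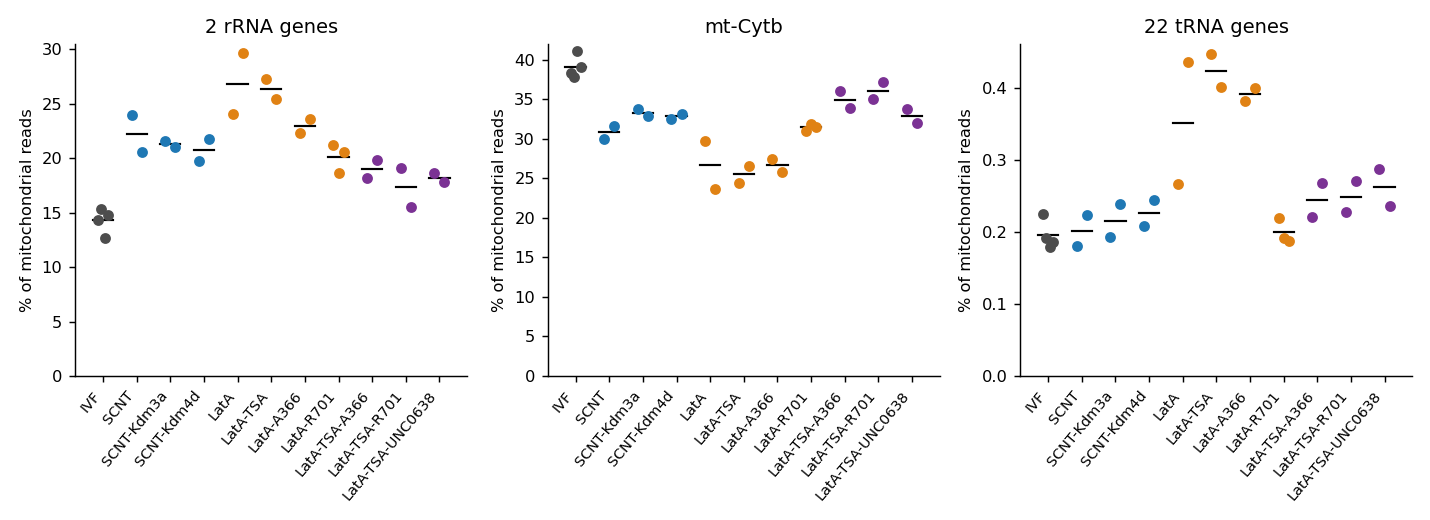
Share of mitochondrial reads taken by the 2 rRNA genes, mt-Cytb and the 22 tRNA genes (percent, linear axes from 0), by group, with each point a library and each bar a group mean. IVF libraries are lowest for rRNA (12.7% to 15.4%) and highest for mt-Cytb (37.9% to 41.1%), and LatA replicate 2 stands with the LatA-TSA and LatA-A366 libraries for tRNA.

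LatA replicate 2, both LatA-TSA and both LatA-A366 libraries shared a further feature. The tRNA genes took 0.382% to 0.447% of their mitochondrial reads and mt-Nd6 1.67% to 1.88%. In the other 20 libraries the ranges were 0.178% to 0.288% and 1.02% to 1.47%. mt-Cytb took 23.6% to 27.5% in the former and 29.7% to 41.1% in the latter. LatA replicate 1 was among the latter, with 0.267%, 1.02% and 29.7%. Its ratio of rRNA to mt-Cytb reads was 0.810, against 1.26 in LatA replicate 2. In these 5 libraries reads on transposable elements made up 12.1% to 15.7% of gene and element reads, against 9.22% to 14.8% in the others, and the part of this was not tested. Every comparison of mitochondrial genes with LatA embryos rests on 2 controls that differ in this feature, and is given below with both of them and without replicate 2.

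The level of each gene was compared in one edgeR quasi-likelihood fit of all 25 libraries over 25827 autosomal and mitochondrial genes, with p values adjusted after Benjamini and Hochberg over all of them. Levels below are CPM, counts scaled to library size with TMM factors, and a gene was called at an adjusted p below 0.05. The factors differed by group. Their means were 0.954 in IVF, 0.892 after Kdm3a, 0.904 after Kdm4d and 0.922 to 0.938 in the co-treated groups. They were 1.07 to 1.13 in SCNT, LatA, LatA-TSA, LatA-A366 and LatA-R701. For scaled levels too, more mitochondrial RNA cannot be told apart from less nuclear polyadenylated RNA. Fold changes are on the log2 scale with their standard errors. The share and the balance described above are made of these same counts. The tests of single genes are therefore no independent support for them. Genes cut from one precursor are also not independent of each other.

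In SCNT embryos against IVF embryos, 11 of the 33 mitochondrial genes were higher and 0 were lower, where 10.9% of all genes tested were higher and 10.4% lower. The median log2 fold change of the mitochondrial genes was 0.66, that of all genes 0.02. Both rRNAs led. The level of mt-Rnr1 was 1919, 2828, 2257 and 2642 CPM in IVF and 6305 and 5129 in SCNT libraries, a log2 fold change of 1.25 (SE 0.20, edgeR adjusted p = 3.62e-05). The level of mt-Rnr2 was 4970, 6429, 5524 and 5644 in IVF and 15199 and 11021 in SCNT libraries (1.22, SE 0.17, edgeR adjusted p = 6.77e-06). The SCNT libraries were about as far above the IVF libraries for both, without overlap.

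Of the 13 coding genes, 7 were called. They were subunits of complex I and of cytochrome c oxidase: mt-Nd1, mt-Nd2, mt-Nd4 and mt-Nd5 with log2 fold changes of 0.48 to 0.61, mt-Co1 with 0.77, and mt-Co2 and mt-Nd3, both within the copied stretch, with 1.57 and 1.70. mt-Cytb did not pass, at 18416 to 25258 CPM in IVF and 27002 and 24761 in SCNT libraries (0.23, SE 0.14). The library ranges of mt-Cytb overlapped. Of the 5 coding genes outside the copied stretch, mt-Nd1, mt-Nd2, mt-Nd5, mt-Nd6 and mt-Cytb, 3 were called.

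Among the 18 tRNA genes tested, mt-Tt and mt-Tp were called. mt-Tt stood at 3.88, 4.85, 4.34 and 3.56 CPM in IVF and at 12.8 and 13.7 in SCNT libraries (1.67, SE 0.32, edgeR adjusted p = 4.18e-04). mt-Tp stood at 38.5 to 42.5 in IVF and at 67.2 and 76.5 in SCNT libraries (0.84, SE 0.20). The next most counted tRNA gene, mt-Tl1, which lies between mt-Rnr2 and mt-Nd1, had 21.2 to 24.1 CPM in IVF and 21.9 and 22.6 in SCNT libraries. Its range in SCNT lay inside that in IVF. The number of mitochondrial genes called was 6 without SCNT replicate 1 and 7 without IVF replicate 1, and both rRNAs were called under every library left out.

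**Figure D4:**
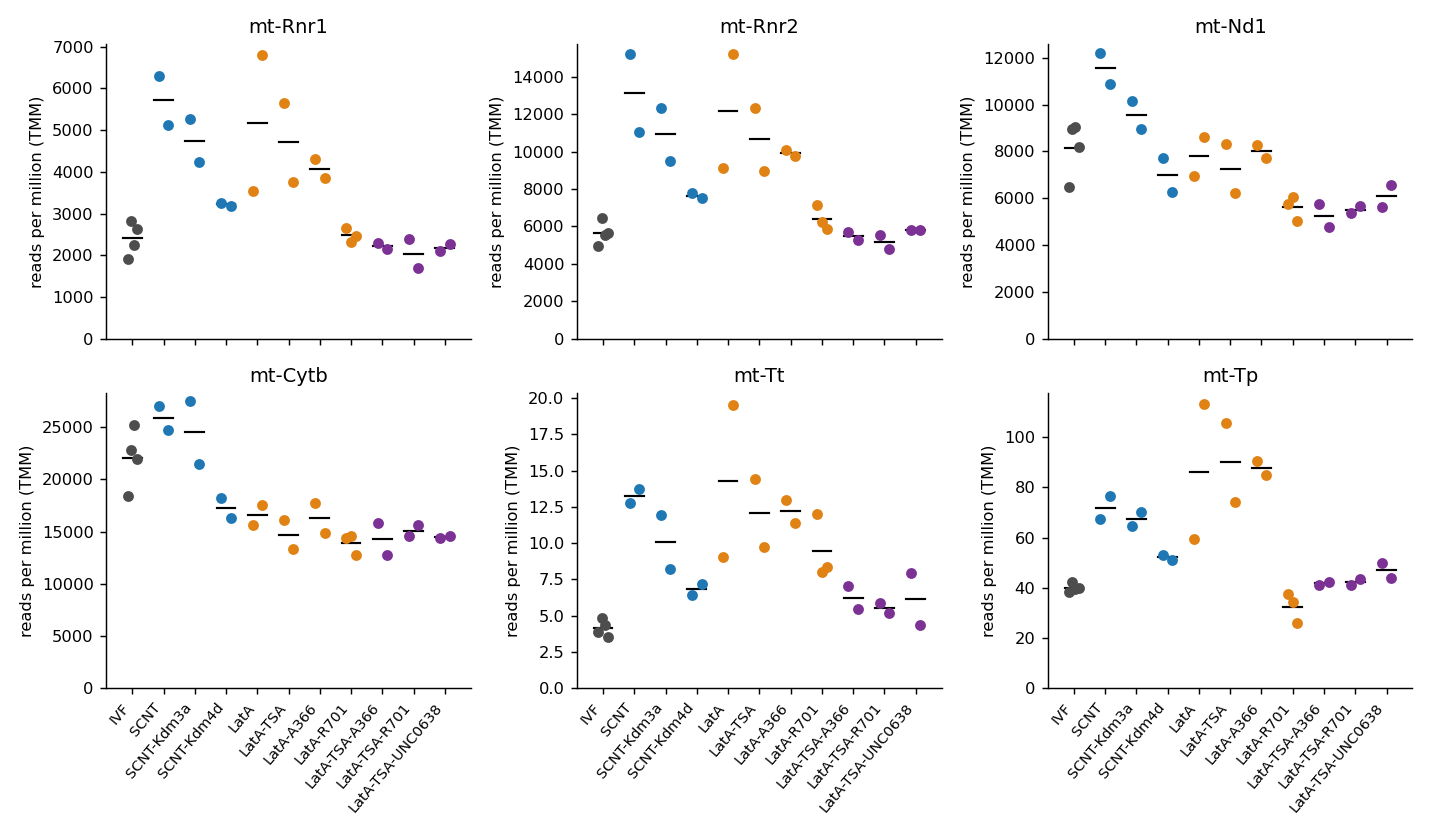
Levels of 6 mitochondrial genes in CPM after TMM scaling (linear axes from 0) by group, with each point a library and each bar a group mean. The rRNAs and the tRNA genes mt-Tt and mt-Tp are higher in untreated SCNT and LatA than in IVF libraries. On this scale mt-Cytb is lower in both LatA libraries than in any IVF library, but before scaling the libraries overlapped.

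In LatA embryos against IVF embryos, 17 mitochondrial genes were higher and 1 was lower, beside 11.7% and 9.99% of all genes tested. The median log2 fold change was 1.10, against 0.04 for all genes, and it was 0.17 without LatA replicate 2 and 1.498 without replicate 1. The balance of classes was different from that in the SCNT comparison: 14 of 18 tRNA genes, both rRNAs and 1 of 13 coding genes, mt-Nd3, were higher, and mt-Cytb was lower. For mt-Nd3 the libraries overlapped, with 1.41 and 10.4 CPM in LatA against 0.620 to 2.01 in IVF. Whether the 2 comparisons differed in this was tested only through the direct comparison of LatA with SCNT below. mt-Rnr1 stood at 3552 and 6811 CPM in LatA libraries (1.10, SE 0.20, edgeR adjusted p = 1.61e-04) and mt-Rnr2 at 9119 and 15224 (1.11, SE 0.17, edgeR adjusted p = 2.41e-05), all above the IVF range. Before scaling, LatA replicate 2 had 188500 of 9259726 gene reads on mt-Cytb, a larger part than the 118780 of 6662727 in IVF replicate 1. After scaling, mt-Cytb stood at 15638 and 17548 CPM, below all 4 IVF libraries (−0.41, SE 0.14, edgeR adjusted p = 0.0404). This call was lost without either LatA library or without IVF replicate 2, 3 or 4 (edgeR adjusted p = 0.0652 to 0.198) and in a fit of the compared libraries alone (edgeR adjusted p = 0.0717).

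Most of the tRNA calls rested on LatA replicate 2. The smallest adjusted p among them was that of mt-Tp, at 59.3 and 113 CPM (1.10, SE 0.20, edgeR adjusted p = 1.90e-04). mt-Tc (tRNA-Cys) stood at 6.79 and 26.3 CPM against 4.25 to 6.36 in IVF, and mt-Tl2 (tRNA-Leu) at 4.07 and 8.47 against 1.23 to 2.17. Without LatA replicate 2, 2 mitochondrial genes were called, mt-Rnr2 and mt-Tt, and the fold change of mt-Nd3 turned to −0.22. Without replicate 1, 22 were called.

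Between LatA and SCNT embryos, 0 mitochondrial genes were called in either direction, 10 had an unadjusted p below 0.05, and DESeq2 called 2. Of all genes tested, edgeR called 0.00387% higher and 0.00774% lower. mt-Cytb was lower in both LatA libraries than in both SCNT libraries (−0.64, SE 0.16, edgeR adjusted p = 0.274). The 13 coding genes had a median log2 fold change of −0.53 and the 18 tRNA genes one of 0.86. The median over the mitochondrial genes was 0.13, and it was −0.53 without LatA replicate 2 and 0.61 without replicate 1, while mt-Tp went from 0.26 to −0.28 without replicate 2.

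Injection of Kdm4d mRNA was followed by lower levels of 9 mitochondrial genes and higher levels of 0, against 1.3% and 3.89% of all genes tested. The median log2 fold change was −0.65, that of all genes −0.04. The 9 were both rRNAs and 7 coding genes, mt-Nd1, mt-Nd2, mt-Nd4, mt-Nd5, mt-Co1, mt-Co2 and mt-Cytb. mt-Nd1, a core subunit of complex I, stood at 7711 and 6265 CPM against 12218 and 10880 in SCNT libraries (−0.72, SE 0.18, edgeR adjusted p = 0.0171). mt-Cytb stood at 18246 and 16279 against 27002 and 24761 (−0.58, SE 0.16, edgeR adjusted p = 0.0355). The rRNAs fell by 0.82 (mt-Rnr1) and 0.78 (mt-Rnr2) on the log2 scale, to 3266 and 3195 and to 7788 and 7495 CPM, which is still above every IVF library. edgeR called 0 of 18 tRNA genes, and 1 had an unadjusted p below 0.05. The count was 0 without SCNT replicate 1 and without SCNT-Kdm4d replicate 2 and 2 without SCNT-Kdm4d replicate 1, mt-Nd1 and mt-Co1.

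After Kdm3a mRNA, 0 mitochondrial genes were called by edgeR, 1 had an unadjusted p below 0.05, and DESeq2 called 1. Of all genes, 4.19% were higher and 1.94% lower. The rRNAs stood at 5267 and 4228 CPM (mt-Rnr1) and 12311 and 9518 (mt-Rnr2), overlapping the SCNT libraries. Their fold changes were −0.27 (SE 0.23) and −0.26 (SE 0.20). The difference between Kdm3a and Kdm4d was not tested.

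Neither TSA alone nor A366 alone gave a mitochondrial call. With TSA edgeR called 0, 1 gene had an unadjusted p below 0.05 and DESeq2 called 0, beside 0.213% of all genes higher and 0.159% lower. With A366 the counts were the same, beside 0.0929% higher and 0.0387% lower. mt-Rnr1 stood at 5655 and 3765 CPM with TSA and at 4306 and 3853 with A366, within the range of the LatA libraries. Without LatA replicate 2 the fold change of mt-Rnr1 went from −0.14 to 0.41 with TSA and from −0.35 to 0.20 with A366, and mt-Nd6 and the tRNA gene beside it, mt-Te, were called higher in both comparisons.

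R701 alone gave 14 lower and 0 higher mitochondrial genes, beside 2.85% of all genes lower and 2.7% higher. The median log2 fold change was −1.19, that of all genes −0.01. The 14 were both rRNAs, mt-Nd2, mt-Nd6 and 10 tRNA genes, and the libraries overlapped for mt-Nd6. mt-Rnr1 stood at 2664, 2320 and 2473 CPM (−1.06, SE 0.21, edgeR adjusted p = 0.00336) and mt-Rnr2 at 7145, 6240 and 5872 (−0.92, SE 0.18, edgeR adjusted p = 0.00311), below both LatA libraries. mt-Tp, at 37.3, 34.1 and 25.8 against 59.3 and 113, had the smallest adjusted p (−1.41, SE 0.21, edgeR adjusted p = 3.84e-04). mt-Cytb did not pass (−0.25, SE 0.15). Without LatA replicate 2 the count was 0, the median −0.40 and the fold change of mt-Rnr1 −0.52. Without replicate 1 the count was 23 and the median −1.73, and it was 5 to 8 without 1 of the R701 libraries.

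Embryos given TSA with a G9a inhibitor had lower rRNA levels than LatA embryos with all 3 compounds. With R701, 16 mitochondrial genes were lower (3.28% of all genes) and 0 higher (6.42%). With A366, 17 were lower (3.49%) and 0 higher (5.78%). With UNC0638, 8 were lower (3.08%) and 0 higher (5.94%). The median log2 fold changes were −1.23, −1.12 and −0.92, those of all genes −0.11, −0.12 and −0.08. Without LatA replicate 2 the mitochondrial medians were −0.46, −0.46 and −0.22, and without replicate 1 they were −1.66, −1.64 and −1.504. These 3 comparisons share the LatA libraries and are not independent of each other.

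mt-Rnr1 stood at 2392 and 1693 CPM with R701, 2298 and 2155 with A366, and 2093 and 2265 with UNC0638. These values lay in or below the IVF range of 1919 to 2828 and below both LatA libraries. The log2 fold changes against LatA were −1.34 (SE 0.24, edgeR adjusted p = 6.95e-04), −1.22 (SE 0.24, edgeR adjusted p = 0.00164) and −1.25 (SE 0.24, edgeR adjusted p = 0.00118). mt-Rnr2 stood at 5553 and 4816, 5683 and 5292, and 5823 and 5816, and fell by 1.23, 1.15 and 1.06 on the log2 scale. Among the coding genes, mt-Nd5 was lower with each compound, by 0.86, 0.90 and 0.71, and mt-Cytb with none (−0.14, −0.21 and −0.20). mt-Co1 and mt-Nd4 were called with R701 and A366, and mt-Nd1 and mt-Nd2 with A366. The differences between compounds were not tested.

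Of the tRNA genes, 11 were called with R701, 10 with A366 and 5 with UNC0638, and mt-Tn, mt-Tc, mt-Tl2 and mt-Tp with all 3. For mt-Tc the R701 libraries, at 4.64 and 7.39 CPM, overlapped the LatA libraries. mt-Tp stood at 41.0 and 43.3, 41.3 and 42.5, and 49.9 and 44.0 CPM, near the IVF range of 38.5 to 42.5. mt-Tt stood at 5.87 and 5.16 with R701 and 7.92 and 4.34 with UNC0638, where it was called, and at 7.01 and 5.48 with A366, where it was not. Without LatA replicate 2 the calls were mt-Rnr1 and mt-Rnr2 with R701, mt-Rnr2 with A366 and 0 with UNC0638, and the fold changes of mt-Rnr1 were −0.80, −0.67 and −0.71. Without replicate 1 the counts were 23, 23 and 21. Without 1 of the treated libraries 2 or 3 were called with each compound, both rRNAs among them each time.

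**Figure D5:**
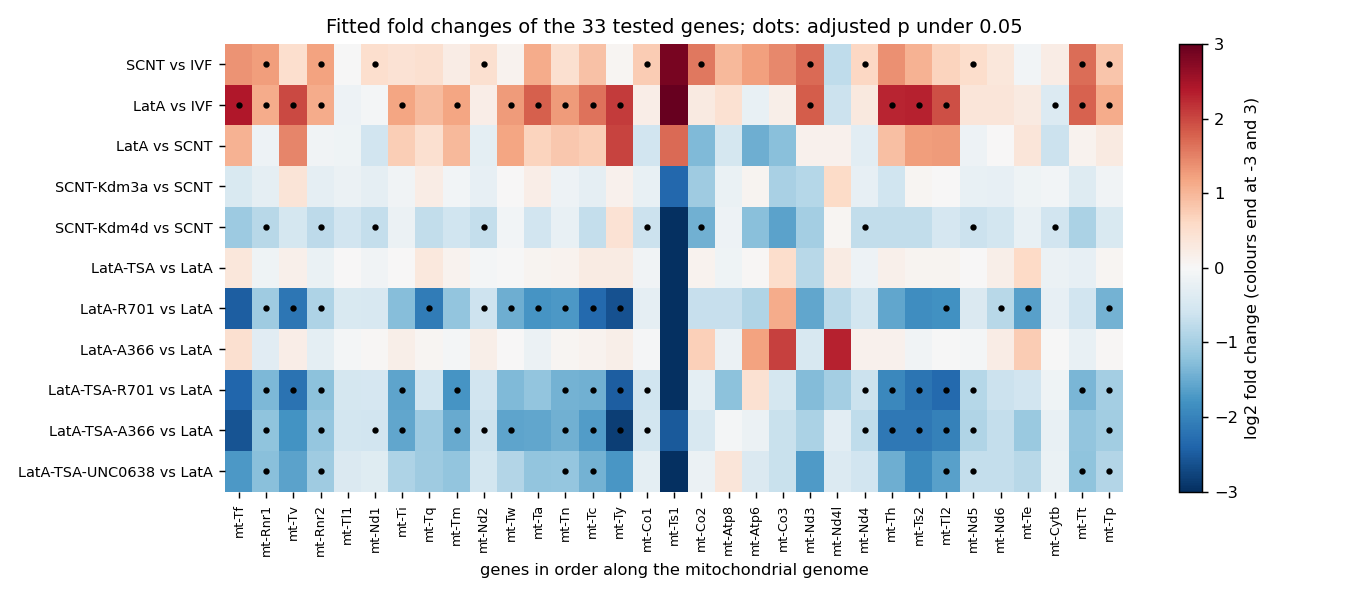
Fitted log2 fold changes of the 33 tested mitochondrial genes (columns, in genome order) in the 11 comparisons (lines), in red where higher and blue where lower in the group named first, with dots at an adjusted p below 0.05. The rRNAs carry dots in both comparisons with IVF, with Kdm4d, R701 alone and the 3 co-treatments, and mt-Ts1, with at most 14 reads in a library, reaches the end of the scale without a dot.

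The nuclear genes that act on mitochondrial RNA were read from 3 lists. Of 17 genes for mitochondrial transcription and mtDNA maintenance, all tested, 2 were higher and 1 lower in SCNT than in IVF embryos (10.9% and 10.4% of all genes), and 4 were higher and 0 lower in LatA embryos (11.7% and 9.99%). Tfam, which packages mtDNA and opens its promoters, was at 13.2 CPM on average in IVF, 42.5 in SCNT and 49.2 in LatA libraries (1.69, SE 0.23, and 1.90, SE 0.23, with edgeR adjusted p of 6.31e-06 and 1.13e-06). Polrmt, the mitochondrial RNA polymerase, was at 23.1, 32.8 and 33.9 and passed in both comparisons (0.51, SE 0.18, and 0.55, SE 0.18). Top1mt, a mitochondrial topoisomerase, was called in LatA embryos (2.53, SE 0.52).

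On the list for transcription and maintenance, 1 gene was higher and 1 lower after Kdm3a (4.19% and 1.94% of all genes) and 2 and 1 after Kdm4d (3.89% and 1.3%). The counts were 3 and 0 with TSA and R701 (6.42% and 3.28%), 3 and 0 with TSA and A366 (5.78% and 3.49%), 2 and 1 with TSA and UNC0638 (5.94% and 3.08%), and 0 and 1 with R701 alone (2.7% and 2.85%). Tfam was lower after Kdm3a (−1.88, SE 0.29) and Kdm4d (−1.26, SE 0.28) than in SCNT embryos, at 11.5 and 17.7 CPM on average, and lower with TSA and UNC0638 than in LatA embryos (−1.67, SE 0.28). It did not pass with the other 2 co-treatments, at 40.1 CPM with TSA and R701 and 32.1 with TSA and A366. Tefm, an elongation factor of POLRMT, was higher after Kdm3a (1.81, SE 0.29) and Kdm4d (1.33, SE 0.29) and in all 3 co-treatments (2.07, 1.94 and 1.62). Its mean was 66.0 CPM in IVF, 50.7 in SCNT, 59.7 in LatA, 178 and 127 after Kdm3a and Kdm4d, and 252, 229 and 184 in the co-treated groups. Mterf1a, of the MTERF family of mtDNA-binding proteins, was higher after Kdm4d (1.23, SE 0.32) and with TSA and R701 (1.13) or A366 (1.16), and Mterf3 of the same family was higher in all 3 co-treatments (1.33, 1.16 and 1.22, SE 0.30 for each). With R701 alone Polrmt was lower than in LatA embryos (−0.99, SE 0.19), at 17.04 CPM. In the LatA libraries themselves Tfam was at 46.9 and 51.6, Tefm at 47.4 and 72.1 and Polrmt at 28.9 and 39.0 CPM.

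Of 18 genes for processing, tailing, stability and decay of mitochondrial RNA, 15 were tested, and 2 were higher and 4 lower in SCNT than in IVF embryos (10.9% and 10.4% of all genes), 3 and 3 in LatA embryos (11.7% and 9.99%). Pnpt1, a polynucleotide phosphorylase of mitochondria, was higher in SCNT (2.07, SE 0.34) and LatA embryos (1.16, SE 0.35) than in IVF embryos. Pde12, an exonuclease that removes poly(A), was lower in SCNT (−1.06, SE 0.26) and LatA (−1.49, SE 0.26). Grsf1, an RNA-binding protein of mitochondrial RNA granules, was also lower in both (−0.55 and −0.56, SE 0.15 for each).

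With TSA, 4 genes of this list were higher with R701 (6.42% of all genes), 4 with A366 (5.78%) and 2 with UNC0638 (5.94%) than in LatA embryos. Pde12 was higher with each compound (1.11, 1.05 and 1.14, SE 0.29 for each), and so was Trmt10c, a part of the RNase P that cuts tRNA 5′ ends (0.94, 0.96 and 1.02, SE 0.25 for each). Grsf1 was higher with R701 (0.70) and A366 (0.82, SE 0.16 for both). The gene of the list that was lower in a co-treatment was Pnpt1, with UNC0638 (−1.52, SE 0.42). On the same list 0 genes were higher and 1 lower after Kdm3a (4.19% and 1.94% of all genes). After Kdm4d the counts were 1 and 1 (3.89% and 1.3%), and with R701 alone 1 and 0 (2.7% and 2.85%). Those lower were Pnpt1 after Kdm4d (−1.56, SE 0.41) and Rexo2, an oligoribonuclease, after Kdm3a (−1.50, SE 0.33). Mtpap, the poly(A) polymerase, passed only with R701 alone (1.15, SE 0.27), at 104 against 46.6 CPM in LatA libraries. Lrpprc, which binds and stabilizes mitochondrial mRNAs, passed in no comparison.

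Of 6 nuclear regulators of mitochondrial biogenesis, 5 were tested. In SCNT against IVF embryos 1 was higher and 1 lower (10.9% and 10.4% of all genes), and in LatA embryos 0 and 1 (11.7% and 9.99%). After Kdm3a 1 was higher (4.19%), and after Kdm4d 1 (3.89%). With TSA, 2 were higher with R701 (6.42%), 1 with A366 (5.78%) and 1 with UNC0638 (5.94%) than in LatA embryos. In these treated groups 0 were lower (1.3% to 3.49%). Gabpa, the DNA-binding subunit of GABP, was at 1156 CPM on average in IVF libraries, 272 in SCNT and 264 in LatA (−2.09, SE 0.22, and −2.13, SE 0.22). It was higher after Kdm3a (1.28) and Kdm4d (1.19) and with TSA and R701 (1.32), A366 (1.28) or UNC0638 (1.58), with means of 623 to 788. The libraries of these groups, at 583 to 817, lay between the LatA libraries, at 188 and 340, and the IVF libraries, at 1048 to 1279. With TSA alone edgeR called 0 genes of the 3 lists, where 5, 1 and 1 had an unadjusted p below 0.05, and with A366 alone 0, where 4, 3 and 2 had. Between LatA and SCNT embryos edgeR also called 0, where 1 gene of each list had an unadjusted p below 0.05. The lists were not tested with DESeq2 or without LatA replicate 2.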

How the data were processed

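Embryo RNA was made into libraries with SMART-Seq HT kits, which prime on poly(A), and sequenced as pairs of 150 bp. Per the paper's methods and the file headers, the authors used Trimmomatic 0.36 to trim, STAR 2.7.5c to place reads on mm10, keeping those with 1 position, and featureCounts 1.6.2 to count read pairs on exons, without strand and without pairs over more than 1 feature. The deposited values are whole counts per gene, not normalized, and no molecular identifiers were used, so errors hold the spread between pools and counting error.

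Counts were tested with edgeR 4.0.16 (glmQLFit, glmQLFTest, TMM, a term for each of 11 groups) in R 4.3.3 on autosomal and mitochondrial genes that averaged 1 read or more per library. Copies of mitochondrial genes were searched as identical windows of 150 bases in GENCODE M21 transcripts, so tRNA genes and unannotated copies were not covered. The sequences shown are taken from those transcripts. TPM used the deposited gene lengths over all genes. The tests were checked on simulated data. The labels do not say whether the pools of a group came from separate experiments, so p-values measure only the spread between these pools.

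The genes and lists were chosen with earlier results of these data known. Named were all coding and rRNA genes with reads that allow it, the 3 most counted tRNA genes and up to 5 called ones, and of the 3 pathway lists Polrmt, Tfam, Mtpap, Lrpprc and up to 4 called genes per comparison with the smallest adjusted p. Other genes named beside a count were chosen after their values were seen. The alternatives were DESeq2 1.42.0, RLE or autosomal factors, other filters, a fold above 2, only the compared libraries, the replicate number as a block, leaving out each library, and other definitions of the share.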

Additional observations from a re-analysis of the deposited data

Results flagged for a closer look

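In 27 measures checked over the 4 IVF libraries, 1 library stood apart. The level of mt-Nd3 in IVF replicate 1 was 0.620 CPM, against 1.81 to 2.01 in the other 3 IVF libraries, from 4 reads. Chance alone marks about 1 in 20 such groups, so 1 mark in 27 measures is about what chance gives.

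The share of mitochondrial reads on mt-Nd5, a core subunit of complex I, moved in opposite ways when TSA was given alone and when it was added to a G9a inhibitor. It was 5.53% in both libraries with TSA alone, above 4.61% and 5.27% in LatA. With TSA and R701 it was 4.40% and 3.99% (mean 4.19%), below 5.08% to 5.49% with R701 alone. With TSA and A366 it was 4.16% and 4.19% (mean 4.17%), below 5.14% and 4.74% with A366 alone. The rise with TSA alone depended on the measure. As a percentage of coding reads, mt-Nd5 had 7.65% and 7.46% with TSA alone, overlapping 6.09% and 7.53% in LatA. In that measure it stayed lower with TSA and R701 (5.45% and 4.73%) than with R701 alone (6.26% to 6.98%). With TSA and A366 it was 5.09% and 5.24%, below 6.64% and 6.24% with A366 alone. The difference between the effects of TSA alone and of TSA added to an inhibitor was not tested.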

How the results depend on the processing

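The number of mitochondrial genes called moved most with the untreated LatA libraries. Leaving out 1 library at a time gave 6 to 12 calls for SCNT against IVF, 2 to 22 for LatA against IVF, 0 to 0 for LatA against SCNT and for Kdm3a, 0 to 7 for Kdm4d, 0 to 2 for TSA and for A366, 0 to 23 for R701, and 2 to 23, 1 to 23 and 0 to 21 for TSA with R701, A366 and UNC0638. Among fold changes called in either fit, 1 turned, that of mt-Nd3 in LatA against IVF, which ran from −0.22 without LatA replicate 2 to 2.66 without replicate 1. Leaving out 1 of 2 libraries assumes that the other varies as the rest do.

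Libraries with the same replicate number showed little shared deviation, with correlations between −0.169 (TSA against LatA) and 0.0423. Where both groups had 2 libraries, the 2 numbers give the same correlation by construction. Whether libraries shared a run cannot be told from this. With a replicate block the counts were 11 for LatA against IVF, 4 for Kdm4d, 6 for R701, 11 for TSA with A366 and 4 for TSA with UNC0638, and elsewhere within 1.5 times those reported, and mt-Cytb lost its call in LatA against IVF (edgeR adjusted p = 0.133). With the TSA numbers crossed, an alternative added after seeing the data, the count for TSA was 0. Fitting the compared libraries alone gave 2 for R701, 1 for A366, and 2, 1 and 2 for TSA with R701, A366 and UNC0638. DESeq2 called 2 for LatA against SCNT, 1 for Kdm3a and 13 for TSA with UNC0638. With no filter on low counts 2 were called for LatA against SCNT and 2 for A366. A fold above 2 left 5 for SCNT against IVF and 1 for Kdm4d. Outside the copied stretch, also chosen after seeing the data, 7 remained for SCNT against IVF, because fewer genes were counted. The cause was not tested for the other settings.

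The ratio of mean shares was 1.14 for LatA against IVF and 0.607 for TSA with R701 when only the 13 coding genes were counted. Leaving out 1 library gave 1.09 to 1.603 for LatA against IVF, 0.634 to 0.936 against SCNT, 0.720 to 1.06 for TSA, 0.568 to 0.838 for R701, 0.774 to 1.14 for A366, and 0.446 to 0.659, 0.443 to 0.654 and 0.477 to 0.703 for TSA with R701, A366 and UNC0638. The rRNA percentage exceeded that of IVF by 10.49 points in SCNT and 16.0 in LatA when coding genes with copies were left out, by 10.7 in LatA per kb, and by 9.76 to 15.3 in LatA with 1 library left out. The mt-Cytb percentage of coding reads differed from IVF by −4.50 points in SCNT without coding genes with copies, and by −12.0 to −6.51 in LatA with 1 library left out.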
